A study of Rosa rugosa with 4 samples.

Results

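Starch and sucrose are the main forms in which a plant stores and moves the carbon fixed in its leaves. The transcripts described here are 96 assembled contigs of Rosa rugosa, of 65535 in the table. The best database hit of each came from a related plant and held a word of starch or sucrose metabolism in its name. The authors' assembly held more contigs than the table, so a level given for an enzyme covers only its contigs in the table. A contig was included when its first hit named Fragaria, Rosa, Prunus, Malus or Pyrus and the hit text held a word for this metabolism, such as starch, amylase, sucrose, invertase, fructokinase or trehalose, but not transporter. In all, 14513 contigs had a first hit in these 5 genera. A contig is named here after its hit alone, and some hits were weak, with an E value of up to 8e-06. Of the 96 contigs, 78 matched Fragaria, 8 Malus, 5 Prunus, 3 Rosa and 2 Pyrus, and they fell on 60 different hit genes. No measured value enters this rule, though it was chosen with earlier results of these data known. Total RNA was sequenced in 4 libraries, named leaf 1, leaf 2, petal 1 and petal 2, from leaves and petals of untreated greenhouse plants, after removal of ribosomal RNA. Neither the cultivar nor the age of the plants is given, and whether the 2 libraries per tissue stem from different plants is not stated, so the spread between them may be technical.

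In leaves, starch is made in the chloroplast by day from ADP-glucose, which ADP-glucose pyrophosphorylase supplies, and starch synthases, branching enzymes and isoamylase build the granule. Amylases, glucan phosphorylases and glucan water dikinase take part in breaking it down. Sucrose is made in the cytosol by sucrose-phosphate synthase and sucrose-phosphatase and travels through the phloem to organs that import carbon, such as opening petals, where sucrose synthase or invertases split it. Invertase inhibitors are small proteins that bind cell wall or vacuolar invertases and block them. Trehalose 6-phosphate, made by trehalose-phosphate synthase, acts as a signal of sucrose supply.

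FPKM is fragments per kilobase of contig, scaled to 1000000 mapped fragments of the library, and a level summed over contigs is given as FPM, fragments per 1000000 mapped. The smallest steps between FPKM values give the mapped depth, rounded, as 26600000 fragments for leaf 1, 20100000 for leaf 2, 18600000 for petal 1 and 23600000 for petal 2, and the contigs of the table held 0.801% to 2.935% of it. Petal 2 stood apart, with 8175 FPM on contigs whose hit was a grey mould fungus, against 2.78 to 6.69 in the other libraries. Aphid hits took 777 to 1007 FPM in petals and 24.6 to 29.5 in leaves, and hits to a leaf-spot fungus took 191 to 353 in leaves and 1.50 to 47.7 in petals. The part of these organisms in the results was not tested, and hits outside the 5 genera are not among the 96 contigs. Of 17 contigs on a leaf marker list 12 were detected, and their summed level was 2.29 and 2.58 FPM in leaves and 5.49 and 2.16 in petals, so this list did not separate the tissues. Within it the contigs of chlorophyll a-b binding proteins reached 5.38 FPM in petal 1 against 1.92 and 1.99 in leaves, both rubisco activase contigs together had 10 and 11 fragments in leaves against 2 and 0 in petals, and the contig of an oxygen-evolving protein was at 0. Of 48 contigs on a petal marker list 29 were detected, with 3.45 and 3.18 FPM in leaves and 6.56 and 8.97 in petals. The excess lay in 1 library each, since anthocyanidin enzymes had 0.264 and 1.14 FPM in leaves and 0.323 and 6.56 in petals and expansins 0.672 and 0.593 in leaves and 4.30 and 0.591 in petals. Nudix hydrolases had 2.14 and 1.19 in leaves and 1.83 and 1.78 in petals, and dihydroflavonol enzymes 0.188 and 0.248 in leaves and 0.0538 and 0 in petals, with chalcone enzymes at 0.188 or less in each library. No contig matched phenylacetaldehyde.

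The contigs were short, 183 to 892 nt with a median of 271 nt, and this set what could be measured. On a contig of 207 nt a single fragment was worth 28.9 FPKM in leaf 1, on one of 376 nt 0.549 FPKM and on one of 892 nt 0.0651 FPKM. No contig under 197 nt had a value above 0 in any library, so the 12 contigs shorter than that carry no information. Of the 96, 52 were above 0 in at least 1 library, which is 54.2%, as it was over all contigs of the 5 genera (7872 of 14513, 54.2%). Fragments over the 4 libraries summed to 1695, and 603 of them lay on a granule-bound starch synthase contig and 553 on a putative invertase inhibitor contig. Only 11 contigs had 20 fragments or more, and 20 of the other 41 detected contigs had 3 or fewer. The remaining 32 contigs were long enough to be measured and were listed at 0 in all 4 libraries. On the short ones a 0 says little about the gene.

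**Figure D1:**
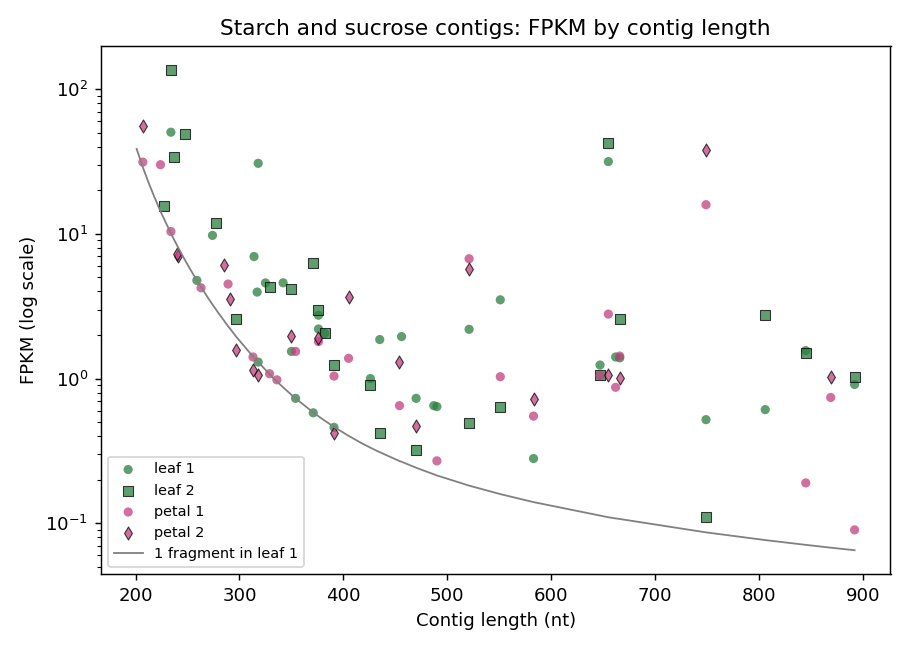
FPKM (log scale) of each detected starch and sucrose contig against its length in nt, 1 point per library with a value above 0, and the FPKM that 1 fragment is worth in leaf 1 (grey line). Many points on contigs under 300 nt lie on or near the line, whereas the granule-bound starch synthase contig of 655 nt and the invertase inhibitor contig of 749 nt lie far above it.

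Over the detected contigs, 19 of 52 (36.5%) had fragments in leaf libraries only, 13 (25.0%) in petal libraries only and 20 in both tissues. The same shares over all detected contigs of the 5 genera were 25.3% for leaf only and 32.9% for petal only. Without petal 2 the shares were 47.9% and 18.8% for the 48 contigs then detected, against 42.1% and 22.3% over the 5 genera. Among the 11 contigs with 20 fragments or more, 4 had both leaf libraries above both petal libraries and 3 the reverse. Over the 1139 contigs of the 5 genera with as many fragments, 22.5% lay above in leaf and 27.1% above in petal. Over all 5090 such contigs of the table the shares were 13.2% and 16.9%. Without petal 2 the counts were again 4 and 3 of 11, against 30.1% and 43.0% over the 5 genera. With 2 libraries against 2, an exact permutation test of a single contig cannot go below p = 0.333.

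Across many contigs the tissues were compared with limma on log2(FPKM + 1), with Benjamini-Hochberg adjustment and a threshold of 0.05, and a log2 difference is petal minus leaf on that scale, which understates changes at low levels. Over the 2157 contigs with a mean and SD of at least 10 FPKM, 24 passed (1.11%), 14 of them (0.649%) on the petal side and 10 on the leaf side. The unadjusted p was below 0.05 for 102 (4.73%). Of the 5 starch and sucrose contigs in that fit, 1 passed, a granule-bound starch synthase contig higher in leaf, for which the share over all contigs was 0.464%, and 3 had an unadjusted p below 0.05. Of those 5 contigs 3 had fewer than 20 fragments, as did 1785 of the 2157 (82.8%). Over the 5090 contigs with at least 20 fragments, limma called 0 (0.0%) after adjustment, while the unadjusted p was below 0.05 for 297 (5.83%). Of the 11 starch and sucrose contigs there, 0 passed and 2 had an unadjusted p below 0.05, namely the 2 contigs with the most fragments. The median log2 difference was -0.92 over these 11, 0.80 over all 5090 and 0.09 over the 1139 of the 5 genera. Fitted on contigs of the 5 genera alone, 0 of the 5 contigs passed, and 20 of 487 (4.11%) did over all contigs of that fit.

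Of all the roles, starch synthesis lay furthest towards leaf. Its 18 contigs summed to 13.3 FPM in leaf 1 and 18.6 in leaf 2, against 1.51 in petal 1 and 0.509 in petal 2. All intervals given here are 95% exact intervals of the fragment counts and cover counting error only. The leaf mean was 15.9 ± 3.74 (SD, n = 2) and the petal mean 1.01 ± 0.704, a 15.8-fold distance, and the libraries of the tissues did not overlap. Without its leading contig the group stood at 2.53 and 4.21 FPM in leaves and 0.484 and 0.127 in petals, 11.1-fold apart. Of the 18 contigs 14 were detected, 5 in leaf only, 8 in both tissues and 1 in petal only. In RNA from a whole organ, fewer cells that carry a transcript and less of it per cell cannot be told apart.

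Granule-bound starch synthase, which makes the amylose of the granule, led the group. The contig TR113284|c0_g1_i1 (655 nt, matching a partial Rosa multiflora gene) had 31.6 and 42.5 FPKM in leaf 1 and leaf 2 and 2.79 and 1.05 in petal 1 and petal 2, which came to 286, 289, 19 and 9 fragments. Both leaf libraries were far above both petal libraries, with means of 37.0 ± 7.70 and 1.92 ± 1.23 FPKM (SD, n = 2), a 19.3-fold distance. Its log2 difference was -3.76 with an SE of 0.74 and an unadjusted p of 0.00664 among contigs with at least 20 fragments (limma), where the adjusted p was 0.469, and the adjusted p was 0.515 among contigs past the FPKM filter. By that difference it ranked 13 from the leaf end among the 1139 contigs of the 5 genera. A second contig, TR16102|c0_g2_i1 (234 nt, matching granule-bound starch synthase 1 of Fragaria), had 50.4, 135.8, 10.4 and 0 FPKM in leaf 1, leaf 2, petal 1 and petal 2. It is the contig that passed the main test, with a log2 difference of -4.64, an SE of 1.16 and an adjusted p of 0.00828 (limma). These values stood for 5, 11, 1 and 0 fragments, and the ratio of leaf to petal rates of 18.5 had a 95% exact interval (Clopper-Pearson) of 2.87 to 775. The call was lost when any 1 library was left out. The log2 difference was then -5.34 without leaf 1, -3.93 without leaf 2, -6.39 without petal 1 and -2.88 without petal 2. Another contig of this enzyme (230 nt) was at 0 in all libraries, but 1 fragment on it was worth 10.4 to 14.0 FPKM. Counted together, the 3 contigs had 591 fragments in leaf and 29 in petal, a ratio per mapped fragment of 18.4 (12.7 to 27.7).

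Branching enzyme and isoamylase, which add and trim the branch points of amylopectin, had the same arrangement of libraries at much lower levels. Starch branching enzyme II-2 (TR13129|c0_g1_i1, 845 nt, matching a Malus gene) had 1.56 and 1.50 FPKM in leaves and 0.19 and 0 in petals, from 22, 16, 2 and 0 fragments. The ratio of leaf to petal rates was 18.0 with an interval of 4.65 to 154, and its log2 difference was -1.21 with an SE of 0.51 and an adjusted p of 0.469 (limma). Its adjusted p was 0.652 without leaf 1, 0.635 without leaf 2, 0.121 without petal 2 and 0.0187 without petal 1, a fit in which 3049 of the 5090 contigs (59.9%) passed. The name of the II-2 contig rests on a hit with an E value of 2e-14. The contig of branching enzyme II-1 had 3, 0, 1 and 0 fragments.

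Isoamylase 1 was split over 4 contigs that matched the same Fragaria gene, so their values are not independent, and 3 were detected. TR129875|c0_g1_i1 (806 nt) had 0.61 and 2.74 FPKM in leaves, from 8 and 27 fragments, and 0 in both petal libraries. TR129004|c0_g1_i1 (892 nt) had 0.91 and 1.03 FPKM in leaves and 0.09 and 0 in petals, from 14, 12, 1 and 0 fragments. Their log2 differences were -1.30 and -0.92, with SEs of 0.65 and 0.48 and an adjusted p of 0.469 for each (limma). The third, TR129232|c0_g1_i1, named after its values were seen, had 3 and 2 fragments in leaves and none in petals. In this order, the hits of the 3 detected contigs had E values of 3e-13, 7e-30 and 2e-09. Together the isoamylase contigs had 66 fragments in leaf and 1 in petal, a ratio of 59.6 with a counting interval of 10.3 to 2390. The first contig alone was 11.1-fold higher in leaf, against a floor of 3 fragments over both petal libraries. The lower limit of its exact interval was 8.55.

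The other starch synthesis enzymes had few fragments. The 4 contigs of ADP-glucose pyrophosphorylase, all of large subunits, had 2, 13, 2 and 1 fragments in leaf 1, leaf 2, petal 1 and petal 2, so the leaf excess lay in leaf 2. The 5 contigs of soluble starch synthases had 10, 4, 2 and 2 fragments, a ratio of leaf to petal rates of 3.16 with an interval of 0.993 to 13.2 that includes equal rates. One of these, starch synthase 1, was at 0, on a contig of 280 nt where 1 fragment was worth 2.3 to 3.68 FPKM.

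Starch breakdown was barely seen on the contigs of the table. Its 17 contigs summed to 10, 7, 5 and 3 fragments in leaf 1, leaf 2, petal 1 and petal 2, or 0.376, 0.348, 0.269 and 0.127 FPM, and 7 of the 17 were detected. The highest value belonged to alpha-glucan phosphorylase, H isozyme, in Arabidopsis the cytosolic form that acts on glucans made from maltose. Its contig TR133468|c0_g1_i1 (248 nt) had 48.9 FPKM in leaf 2 and 0 in the other libraries, from 6 fragments, with a log2 difference of -2.82, an SE of 3.86 and an adjusted p of 0.515 (limma). Its adjusted p was 0.025 without leaf 1, where 21.5% of all contigs passed, 0.711 without petal 1 and 0.911 without petal 2, and without leaf 2 no value above 0 remained. A second contig of that gene, TR139085|c0_g2_i1 (435 nt), had 1.86 and 0.42 FPKM in leaves, from 6 and 1 fragments, and 0 in petals. Over the gene this made 13 fragments in leaf and none in petal, 3.92-fold higher per mapped fragment against a floor of 3 fragments. The lower limit of the exact interval was 2.75. The contigs named beta-amylase had 1, 0, 2 and 3 fragments over 5 contigs, and the 3 in petal 2 were all on beta-amylase 7. The 6 contigs of glucan water dikinase all matched alpha-glucan water dikinase 2 and had 3, 0, 3 and 0. The 3 alpha-amylase contigs were at 0, and on those of 226 nt 1 fragment was worth 12.1 to 16.1 FPKM.

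**Figure D2:**
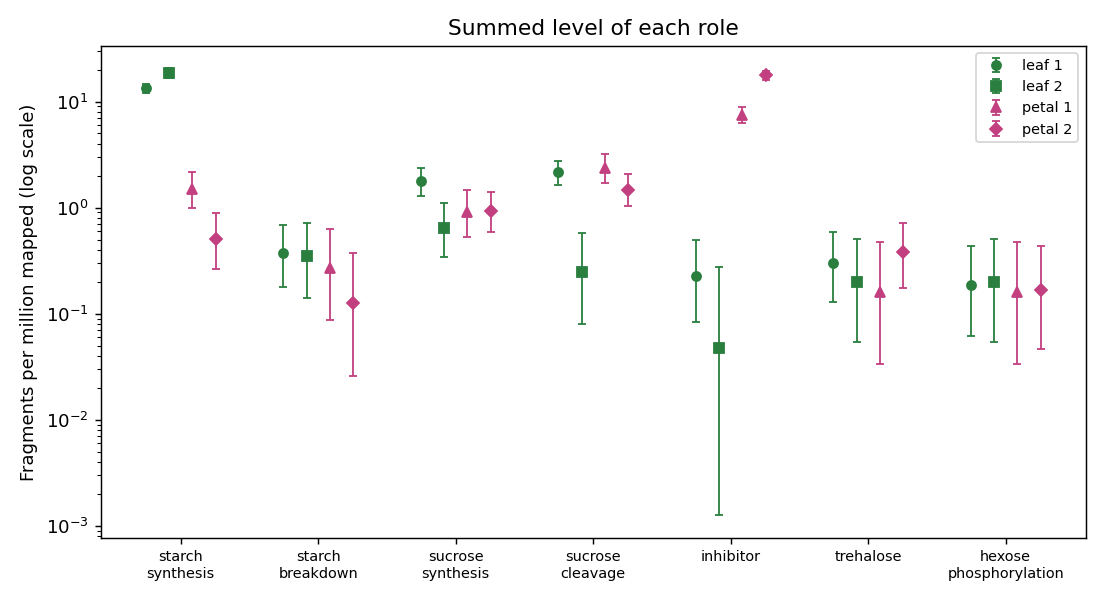
Summed FPM (log scale) of each role in leaf 1, leaf 2, petal 1 and petal 2, with 95% exact Poisson intervals that cover counting error only. Starch synthesis lies at 13.3 and 18.6 in leaves and 1.51 and 0.509 in petals, the inhibitors the other way, at 0.226 and 0.0475 in leaves and 7.48 and 17.8 in petals, and in the 5 other roles the libraries of the tissues overlap or have overlapping intervals.

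Sucrose synthesis as a group did not separate the tissues. Its 16 contigs summed to 1.77 and 0.645 FPM in leaves and 0.912 and 0.929 in petals, so the petal values lay between those of the leaves. Within it, contigs of different sucrose-phosphate synthase genes took opposite sides. Contigs matching sucrose-phosphate synthase 4 were seen in leaf only, and those matching one Fragaria sucrose-phosphate synthase 1 gene in petal only.

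For sucrose-phosphate synthase 4, TR116573|c0_g1_i1 (318 nt) had 30.7 FPKM in leaf 1, from 23.7 estimated fragments, and 0 in the other 3 libraries. The fragments of this contig were shared out by the authors' software with a second isoform of the same gene, TR116573|c0_g1_i2, named after its values were seen, which had 4.59 FPKM in leaf 1 alone. The log2 difference of the first was -2.49 with an SE of 1.83 and an adjusted p of 0.469 (limma), and without leaf 1 it was 0. A contig of the same enzyme with a Pyrus hit, TR14383|c0_g1_i1, named after its values were seen, had 2.05 and 2.08 FPKM in leaves, from 4 and 3 fragments, and 0 in petals.

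For sucrose-phosphate synthase 1, TR113205|c0_g1_i1 (869 nt) had 0 in both leaf libraries, 0.74 FPKM in petal 1 and 1.02 in petal 2, from 8 and 14 fragments. It was 7.76-fold higher in petal against a floor of 3 fragments over both leaf libraries, and the lower limit of the exact interval was 5.80. Its log2 difference was 0.91 with an SE of 0.47 and an adjusted p of 0.469 (limma). The adjusted p was 0.652 without leaf 1 and 0.635 without leaf 2. With 1 petal library left in the fit it was 1.45e-17 without petal 1 and 2.24e-11 without petal 2, where both leaf values were at 0 and where 59.9% and 8.53% of all contigs passed. A second contig of that gene, TR16052|c0_g1_i1, named after its values were seen, had 2 and 5 fragments in petals and none in leaves. The other contigs named sucrose-phosphate synthase 1, from 2 further hit genes, had 3 fragments in leaf 1 or leaf 2 and none in petals.

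Sucrose-phosphatase 1, which removes the phosphate to give sucrose, overlapped between the tissues. TR103663|c0_g1_i1 (647 nt) had 1.24 and 1.05 FPKM in leaves and 1.05 and 0 in petals, from 11, 7, 7 and 0 fragments. Its hit had an E value of 2e-10. The log2 difference was -0.58 with an SE of 0.63 and an adjusted p of 0.501 (limma), and petal 2 alone lay apart from the rest.

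Sucrose cleavage enzymes varied as much within leaf as between the tissues. The 16 contigs summed to 2.15 and 0.250 FPM in leaf 1 and leaf 2 and 2.37 and 1.48 in petal 1 and petal 2, so leaf 1 was close to the petals and leaf 2 low. The means were 1.20 ± 1.34 for leaf and 1.93 ± 0.629 for petal (SD, n = 2).

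Sucrose synthase, which splits sucrose into UDP-glucose and fructose, was detected on contigs of 2 Fragaria genes that are both named sucrose synthase 2. A contig of another sucrose synthase gene was at 0, but at 201 nt 1 fragment on it was worth 37.5 to 44.4 FPKM. TR132659|c0_g1_i1 (521 nt) had 2.19 and 0.49 FPKM in leaves and 6.73 and 5.70 in petals, from 12, 2, 29 and 31 fragments. Both petal libraries lay above both leaf libraries, with a ratio of petal to leaf rates of 4.22 (2.33 to 8.18) and a log2 difference of 1.72 with an SE of 0.76 and an adjusted p of 0.469 (limma). The contig of the other gene, TR16651|c0_g2_i1 (551 nt), had 3.50 and 0.64 FPKM in leaves and 1.03 and 0 in petals, from 22, 3, 5 and 0 fragments. Here leaf 1 was high, leaf 2 lay below petal 1, and the log2 difference was -0.93 with an SE of 0.82 and the same adjusted p. The difference between these genes was not tested.

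Invertases split sucrose into glucose and fructose, in the cell wall, the vacuole or the cytosol and plastid. Cell wall invertase had 19, 0, 8 and 0 fragments over 6 contigs, so it was seen in 1 library of each tissue. Vacuolar invertase isoform 2, matching a Rosa hybrid mRNA, was seen in petals only, on 2 contigs. TR14566|c0_g1_i1 (207 nt) had 31.3 FPKM in petal 1 and 55.2 in petal 2 and 0 in leaves, which stood for 1 and 2 fragments. Its log2 difference was 5.41 with an SE of 2.15 and an adjusted p of 0.459 (limma), and the adjusted p was 0.134 without leaf 1 and 0.162 without leaf 2. It was 0.000325 without petal 1 and 0.0167 without petal 2, fits in which 37.6% and 14.1% of all contigs passed. The second contig had 1 fragment in each petal library, so this gene had 5 fragments in petal and 0 in leaf. That was 1.84-fold higher per mapped fragment against the floor, and the lower limit of the exact interval was 1.01. Alkaline/neutral invertase had 1 fragment in leaf 1 and 1 in petal 2.

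**Figure D3:**
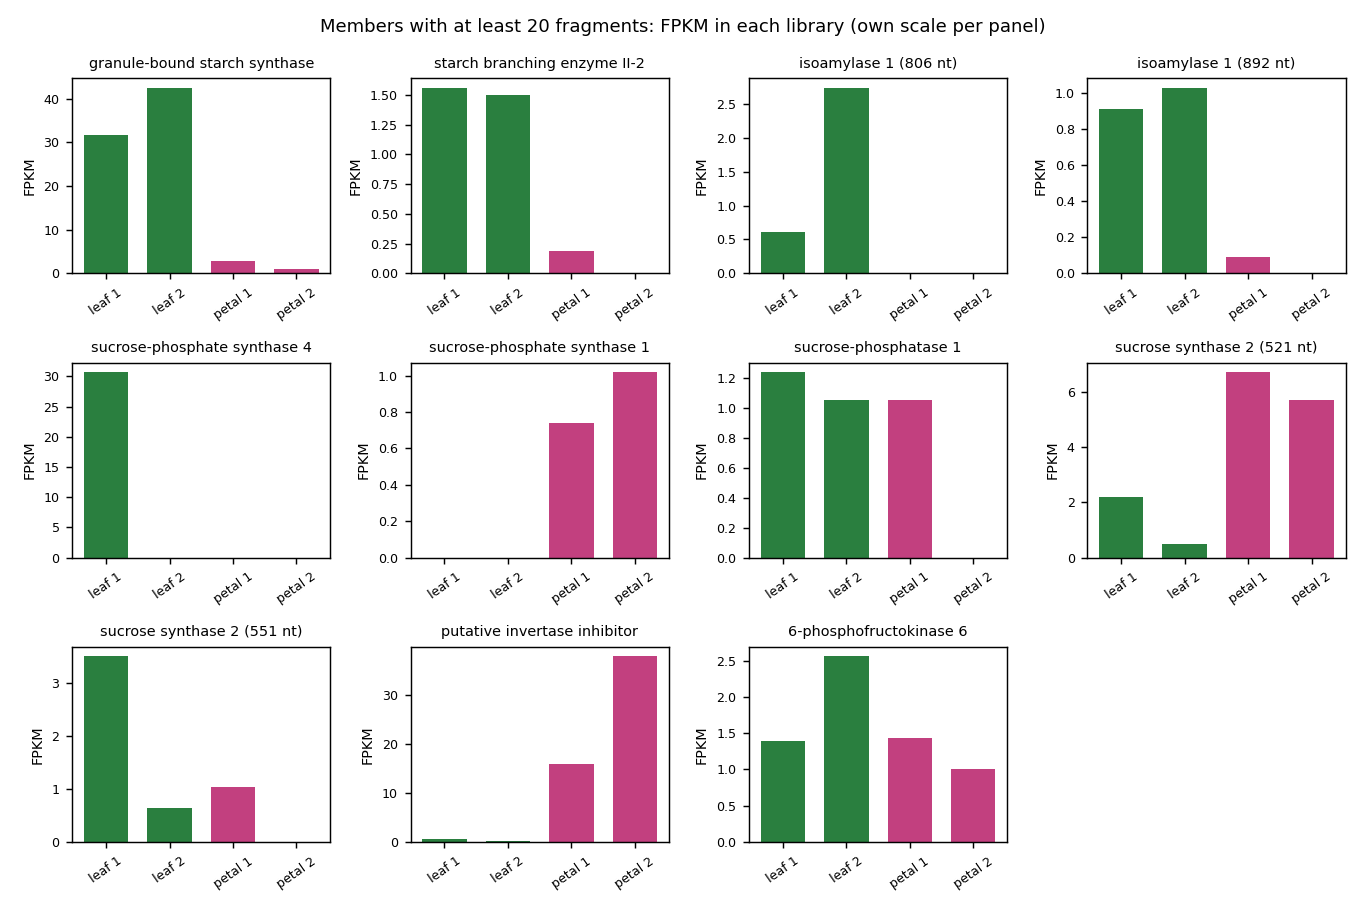
FPKM of the 11 starch and sucrose contigs with at least 20 fragments in leaf 1, leaf 2 (green), petal 1 and petal 2 (pink), each panel with its own linear scale from 0. Both leaf bars exceed both petal bars for granule-bound starch synthase, branching enzyme II-2 and both isoamylase 1 contigs, and both petal bars exceed both leaf bars for sucrose-phosphate synthase 1, sucrose synthase 2 (521 nt) and the putative invertase inhibitor.

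The role furthest towards petal was that of the putative invertase inhibitors. TR102621|c0_g1_i1 (749 nt, matching a Fragaria gene) had 0.52 and 0.11 FPKM in leaf 1 and leaf 2 and 15.9 and 37.9 in petal 1 and petal 2, from 6, 1, 136 and 410 fragments. The petal libraries did not overlap the leaf libraries, with means of 26.9 ± 15.5 and 0.315 ± 0.290 FPKM (SD, n = 2), an 85.3-fold distance. The log2 difference was 4.30 with an SE of 0.81 and an unadjusted p of 0.00551 among contigs with at least 20 fragments (limma), where the adjusted p was 0.469, and the adjusted p was 0.515 among contigs past the FPKM filter. By that difference it ranked 10 from the petal end among the 1139 contigs of the 5 genera. Petal 2, the library with the grey mould hits, was the higher of the petals, and without it the summed inhibitor level was still 5.77 log2 units above leaf. The second inhibitor contig, TR18277|c0_g1_i1 (405 nt), matched another Fragaria gene and was named after its values were seen. It had 0 in leaves and 1.38 and 3.67 FPKM in petals, from 3 and 10 fragments. This was 3.83-fold higher in petal against the floor, and the lower limit of the exact interval was 2.69. The word inhibitor comes from the hit's name alone, and some proteins of this family act on pectin methylesterase instead of invertase.

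The trehalose contigs had few fragments in either tissue. Of 11, 4 were detected, and they summed to 8, 4, 3 and 9 fragments in leaf 1, leaf 2, petal 1 and petal 2. The leading one, matching a probable trehalose-phosphate synthase 7 (TR16858|c0_g1_i1, 583 nt), had 0.28, 0, 0.55 and 0.72 FPKM, from 2, 0, 3 and 5 fragments. Its ratio of petal to leaf rates was 4.04 with an interval of 0.807 to 39.1. Trehalose-phosphate synthase 1 had 2, 4, 0 and 3 fragments, on a contig whose hit had an E value of 8e-06. Only 1 of 7 contigs of trehalose-phosphate phosphatase, which removes the signal, was detected, with 4 fragments in leaf 1.

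Of the 4 contigs placed under hexose phosphorylation, the step that brings glucose and fructose back into metabolism, a single one was detected. Fructokinase-like 1 (TR103243|c0_g1_i1, 376 nt), named for its likeness to fructokinases and known in Arabidopsis from chloroplast gene expression, had 2.74, 2.97, 1.80 and 1.92 FPKM in leaf 1, leaf 2, petal 1 and petal 2. These stood for 5, 4, 3 and 4 fragments, and the ratio of leaf to petal rates of 1.52 had an interval of 0.504 to 4.80. Hexokinase 1 and fructokinase 5 were at 0, on contigs of 223 to 259 nt where 1 fragment was worth 4.01 FPKM or more in each library.

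Of the 2 contigs of kinase regulators, the one of a sucrose nonfermenting 4-like protein (TR124724|c0_g1_i1, 376 nt), a subunit of the energy-sensing kinase complex, had 2.20 FPKM in leaf 1, from 4 fragments, and 0 elsewhere. The contig of SnRK2.3, a kinase caught by the word sucrose in its full name, had 1 fragment in leaf 2 and 1 in petal 2. The words of the rule also caught 10 contigs outside these roles. They were 4 of phosphofructokinase, an enzyme of glycolysis, 4 of the sucrose transport protein SUC3 and 2 of galactinol-sucrose galactosyltransferase. The contigs of SUC3 and of the galactosyltransferase were all under 197 nt, so they carry no information. Among the 10 contigs, ATP-dependent 6-phosphofructokinase 6 (TR141303|c0_g1_i1, 666 nt) had 1.39 and 2.56 FPKM in leaves and 1.43 and 1.01 in petals. These stood for 13, 18, 10 and 9 fragments. The tissues overlapped, with a log2 difference of -0.40, an SE of 0.63 and an adjusted p of 0.647 (limma).

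**Figure D4:**
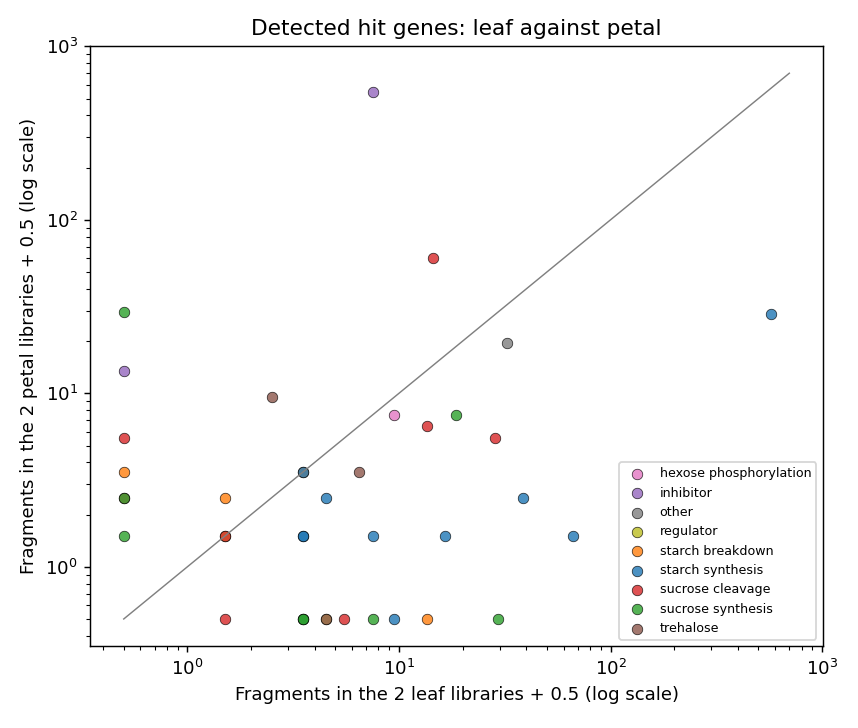
Fragments in both leaf libraries against fragments in both petal libraries (each plus 0.5, log scales) for the hit genes with any fragment, coloured by role, with a grey line of equal counts. Starch synthesis genes lie on or below the line, with 575 against 28 for the leading granule-bound starch synthase and 66 against 1 for isoamylase 1, while the leading inhibitor lies above it with 7 against 546.

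Read by hit gene, 40 of the 60 genes had at least 1 fragment, and 26 were split over several contigs. In total the 96 contigs took 18.9, 21.3, 13.4 and 21.8 FPM in leaf 1, leaf 2, petal 1 and petal 2, so the sum overlapped between the tissues. Without the leading granule-bound starch synthase and inhibitor contigs, the other 94 took 7.95 and 6.85 in leaves and 5.06 and 4.06 in petals, with both leaf libraries above both petal libraries. Their fragments numbered 211, 138, 94 and 96 in leaf 1, leaf 2, petal 1 and petal 2. Of these, 67, 85, 9 and 3 lay on the remaining starch synthesis contigs, so the leaf excess is not one of every role. As a share of all fragments on contigs of the 5 genera these 94 were 0.118% and 0.111% in leaves and 0.0530% and 0.0701% in petals. A list of 37 contigs of neighbouring enzymes and carriers, such as galactinol synthase, SWEET sugar carriers and disproportionating enzyme, held 21 detected contigs with 81 fragments in leaf and 55 in petal. Of these 2 were in the main fit and 0 passed (limma, 24 of 2157 over all contigs).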

How the data were processed

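Leaf and petal RNA of Rosa rugosa was sequenced with paired reads after removal of ribosomal RNA, 2 libraries per tissue. The authors assembled the 4 libraries together with Trinity, searched contigs against NCBI databases and estimated abundance using RSEM with bowtie (the versions of these 2 tools are not stated). The authors deposited FPKM per contig with 2 decimals, in a table of 65535 contigs, and other contigs of the assembly were not analysed here. The authors compared tissues with edgeR, which was not used here because FPKM are not counts.

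Fragments were recovered by dividing each FPKM by the value of 1 fragment, read per library from low values at each contig length (Python 3.11.15, scipy 1.17.1). Of the checked values (at least 0.3 FPKM, at most 10 fragments, contigs under 500 nt), 98.8% to 98.9% per library lay within 0.1 of a whole number. The main test was limma 3.58.1 (R 4.3.3) with a variance trend on log2(FPKM + 1), two-sided, over contigs with a mean and SD of at least 10 FPKM, and a second fit used contigs with at least 20 fragments. Intervals are 95% exact and cover counting error only, and a tissue at 0 was set to a floor of 3 fragments over both libraries. A fold against that floor is not a lower limit, so the lower limit of the exact interval is given beside it.

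Contigs were named if they passed the FPKM filter, had at least 20 fragments or led their role, and others are marked. Roles were assigned from whole words of the hit. Just inside the filter lay TR133468|c0_g1_i1 with a mean of 12.2 FPKM and just outside TR17089|c0_g1_i1 with 8.43. The members, lists and alternatives were chosen with earlier results of these data known. Replicate numbers only name the libraries, since nothing in the labels pairs them. None of the hit genes is in the Rosa rugosa gene table, so no coordinates or sequences are given.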

Additional observations from a re-analysis of the deposited data

How the results depend on the processing

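Of the 24 calls over all contigs and the 1 call among the starch and sucrose contigs, the counts became 9 and 0 with quantile normalization, 0 and 0 with no trend in the prior, 66 and 0 with limma-voom on the recovered fragments, 0 and 0 with at least 20 fragments in place of the FPKM filter, 3 and 0 with no filter, and 9 and 0 when a mean of 1 FPKM was enough. The call among the starch and sucrose contigs was also lost with a pseudocount of 10 and among contigs of the 5 genera alone (0 each). The cause was not tested. Leaving out each library gave 305 to 810 calls over all contigs and 0 to 1 among the starch and sucrose contigs, with the lone library of a tissue assumed to vary like the others. With at least 20 fragments it gave 0 calls without leaf 1 or leaf 2 (limma, 127 and 88 with an unadjusted p below 0.05), 3049 without petal 1 and 434 without petal 2, of which 0, 0, 2 and 1 were starch and sucrose contigs. With a replicate block there were 51 calls and 1. In the fit on at least 20 fragments the block gave 142 calls, among them TR113284|c0_g1_i1 (adjusted p = 0.00661) and TR102621|c0_g1_i1 (adjusted p = 0.00332), both limma, against 0 without it. The deviations of same-numbered libraries had r = 0.322 over 5090 contigs in that fit and 0.041 over 2157 past the FPKM filter, which are correlations across contigs.

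Of 207 refitted log2 differences of 14 contigs, 0 changed sign, 190 kept their side of the threshold, 11 lost a call and 6 gained one, and those that lost it are all of TR16102|c0_g2_i1. For the summed fragments of each role, chosen after seeing the data, the log2 ratio of petal to leaf of sucrose cleavage was 0.69 and reversed to -0.91 without its leading contig, and ranged from -0.16 to 2.95 when each library was left out. For sucrose synthesis it was -0.39 and ranged from -0.94 to 0.51. For starch synthesis it ranged from -4.97 to -3.40 and for the inhibitors from 5.77 to 8.05. For starch breakdown it was -0.87, ranged from -1.51 to -0.43 and moved to -0.18 without its leading contig. Scaled to fragments on contigs of the 5 genera, each of these 5 ratios kept its direction. Of the 52 detected contigs 41 had fewer than 20 fragments, which limits the precision of their values.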
